A study of Mus musculus with 16 samples.

Results

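The genes described here are 39 mouse genes of endosomal cargo sorting, taken as a fixed list of names. The list was chosen with earlier results of these data known, and was matched by symbol to the 55404 genes of the whole-brain expression table. All 39 were found. They fall into 9 roles, namely ESCRT-0 (3 genes), ESCRT-I (5), ESCRT-II (3), ESCRT-III (8), ESCRT disassembly together with the accessory protein ALIX (3), retromer (4), sorting nexins (5), sorting receptors (4), and the early endosome tether Eea1 with the PIKfyve complex (4). RNA sequencing of total RNA compared 8 Tecpr2 ki/ki mice with 8 wt/wt mice, all 5 months old and untreated, with 1 library per mouse. The study describes the mice of this experiment as males. The ki/ki mice were homozygous for the Tecpr2 L1152fs frameshift, knocked in by CRISPR/Cas9 on a C57BL/6J background. Every cell of these animals carries the allele, and whole brain was homogenised, so a transcript that changed in 1 region or cell type is averaged over all others. In bulk tissue, fewer cells of a type and less RNA per cell cannot be told apart. TECPR2 is a large cytosolic protein linked to autophagosomes, lysosomes and vesicle traffic, and its loss in humans causes a hereditary sensory and autonomic neuropathy. The comparison asked how strongly the transcripts of the sorting machinery differed between the genotypes.

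Endosomes sort membrane proteins either inward, for degradation, or outward, for reuse. ESCRT complexes act in sequence: ESCRT-0 gathers ubiquitin-tagged cargo, ESCRT-I and ESCRT-II bend the membrane and recruit ESCRT-III, whose filaments cut the vesicle neck, and the ATPase VPS4 takes those filaments apart. Retromer and the sorting nexins work in the opposite direction and return receptors to the trans-Golgi network or the cell surface. The lipid kinase PIKfyve makes PI(3,5)P2 on late endosomes, in a complex with the phosphatase FIG4 and the scaffold VAC14. In neurons, where endosomes travel along axons, defects of CHMP2B, VPS35, SORL1, FIG4 and VAC14 are known from human neurodegenerative disease.

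Values are linear normalised read counts as deposited, rounded to whole numbers, and library totals were 11964284 to 12157263 in ki/ki and 12010067 to 12252324 in wt/wt. Tecpr2 itself checked the labels, with values of 274 to 320 in the ki/ki and 928 to 1002 in the wt/wt mice. Fold changes are differences of mean log2(value + 1), and unless another test is named, p-values come from limma fitted to all 23244 genes that passed a filter on low values. A gene passed the test at an unadjusted p under 0.01, the wider of 2 thresholds, and an adjusted p under 0.1 is the stricter. Of these genes, 1.56% had an unadjusted p under 0.01, 6.08% under 0.05, and 0.133% an adjusted p under 0.1. Each library is a separate animal, so the tests set the genotype difference against the spread between mice. In limma that spread is moderated toward genes of similar level, so its p-values and intervals do not rest on a gene's own spread alone.

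All 39 genes passed the filter, and 1 of them, Vac14, had an unadjusted p under 0.01, which is 2.56% of the list. Among all genes the share was 1.56%, with 0.856% higher and 0.701% lower in ki/ki. None of the 39 had an adjusted p under 0.1 by limma. At an unadjusted p under 0.05 there were 2, Vac14 and Vps29, and these were also the 2 with an exact two-sided permutation p under 0.01, a level that 1.48% of all genes reached. In none of the 39 were the genotypes free of overlap, as against 0.0860% of all genes. The log2 fold changes ran from -0.17 (Vps25) to 0.17 (Vac14) with a median of -0.0046. All genes tested had a median of -0.00098. There were 16 members with a higher mean in ki/ki and 23 with a lower mean, beside 49.5% higher among all genes.

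**Figure D1:**
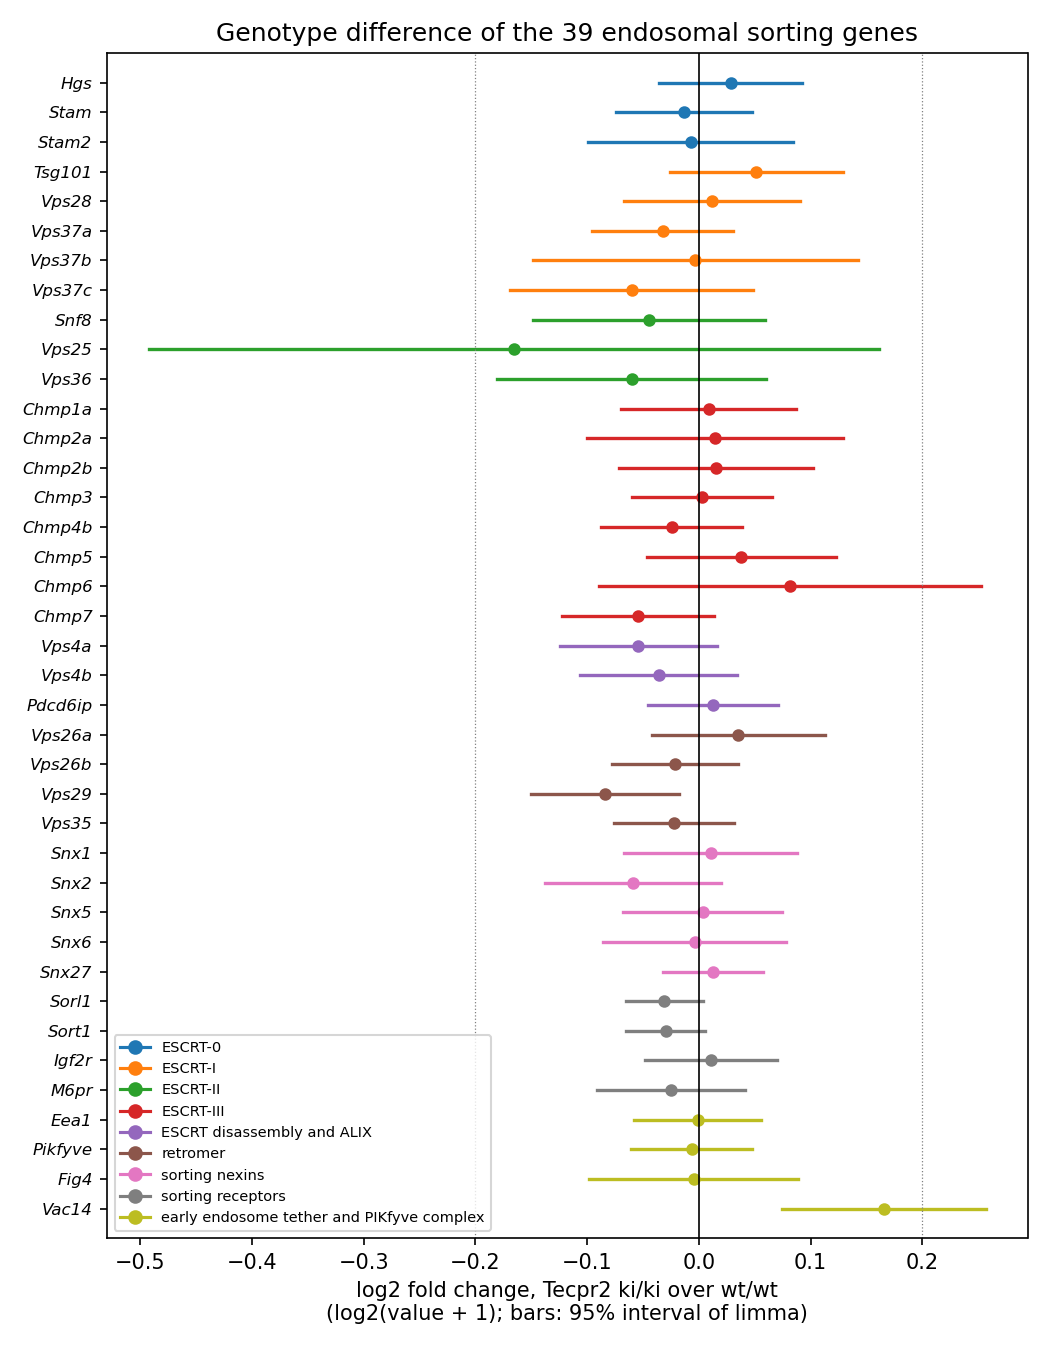
Log2 fold change of each of the 39 genes, Tecpr2 ki/ki over wt/wt (x axis, log2(value + 1) scale), with its 95% interval from limma (bars) and a colour for each role. Vac14 and Vps29 are the genes whose interval leaves out 0, and the dotted lines mark -0.2 and 0.2.

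The data bounded most differences tightly. The 95% interval lay within 0.1 of 0 on the log2 scale, a difference of at most 7.18%, for 22 of the 39 genes, and within 0.2 of 0, at most 14.9%, for 36. The exceptions to the wider limit were Vps25, Chmp6 and Vac14. Among the 11241 tested genes with a mean value of 100 or more, 35.3% and 86.9% had intervals that narrow, and 37 members reached that level, with 22 and 36 inside the limits. The within-genotype coefficient of variation had a median of 4.36% in ki/ki and 4.88% in wt/wt. It was lowest for Snx27 and highest for Vps25, a gene of low value.

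**Figure D2:**
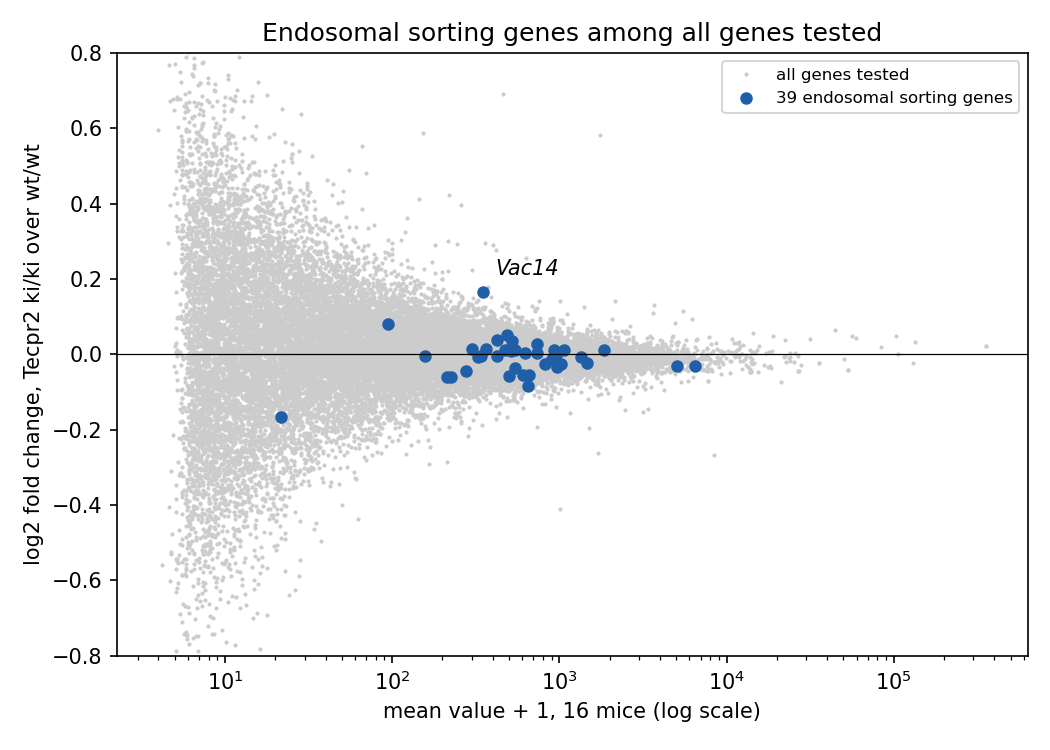
Log2 fold change, Tecpr2 ki/ki over wt/wt (y axis), against the mean value + 1 of 16 mice (x axis, log scale) for all 23244 genes tested (grey) and the 39 endosomal sorting genes (blue). The members lie close to 0 with Vac14 the highest of them, and 70 genes beyond 0.8 in either direction, Tecpr2 included, are off the axis.

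Vac14 encodes the scaffold that holds PIKfyve and FIG4 together. Its values in the ki/ki mice were 349, 382, 391, 393, 337, 368, 346 and 366, and in the wt/wt mice 327, 331, 289, 344, 313, 336, 326 and 347. The groups overlapped between 337 and 347, all 8 ki/ki mice lay above the wt/wt median of 329, and 6 of the 8 lay above every wt/wt mouse. Means were 366.5 ± 21.2 (SD, n = 8) for ki/ki and 326.6 ± 18.6 (SD, n = 8) for wt/wt, 12.2% apart. Its log2 fold change was 0.17 (SE 0.046, 95% interval 0.075 to 0.26) with an unadjusted limma p of 0.00054 and an adjusted p of 0.22. An exact two-sided permutation test over the 16 mice gave p = 0.00093. The unadjusted p stayed under 0.01 when any of the 16 mice was left out, with log2 fold changes of 0.14 to 0.18.

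The partners of Vac14 did not pass the test. Pikfyve, the kinase itself, ranged from 1276 to 1421 in ki/ki and from 1306 to 1440 in wt/wt, with a log2 fold change of -0.0065 (95% interval -0.061 to 0.048). Fig4, the phosphatase that also stabilises the kinase, ranged from 312 to 373 and from 307 to 382, with a log2 fold change of -0.0046 (95% interval -0.098 to 0.089). Eea1, the coiled-coil tether that lets early endosomes fuse, had 915, 952.5 and 981 as lowest, median and highest value in ki/ki and 900, 954.5 and 988 in wt/wt. Its log2 fold change of -0.0011 (95% interval -0.058 to 0.056) was the smallest in size of the list, and its sign turned when the libraries were rescaled (0.0029 and 0.0022).

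Vac14 lies on chr8:110618585-110720398, plus strand, in GRCm38, a different build from the GRCm39 to which the reads were mapped. Among the 28 members with a promoter in the RefSeq tables for GRCm38.p6 (250 bases before to 50 after each start site), 3 hold the 10-base palindrome GTCACGTGAC. Of the 16 palindromes that extend the E-box CACGTG by 2 bases a side, it was the one in most of these promoters and none of the others occurred there, so its share was chosen on the members. The same holds for its 8-base core below, picked from 4 palindromes in the same way. It is a full form of the CLEAR element, a motif known to be read by TFEB and related factors at lysosomal genes. The windows are shown because they place the same letters in Vac14, which passed the unadjusted test, and in 2 members that did not. A link of the motif or its factors to these values was not tested. Capitals mark the palindrome, and each line gives the gene with its position.
Vac14, chr8:110618586-110618615, plus strand: tgctcgcggcGTCACGTGACctgagtaaca
Vps26a, first start site, chr10:62486970-62486999, minus strand: cgcacggctcGTCACGTGACaactagctct
Vps26a, second start site, chr10:62486732-62486761, minus strand: atggcctacgGTCACGTGACgggcggcggg
Igf2r, chr17:12769696-12769725, minus strand: gccgactcagGTCACGTGACgctccgggga

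In Vac14 the palindrome spans positions 30 to 39 after the RefSeq start, inside an exon of the GENCODE M21 annotation. In Igf2r it spans positions -9 to 1, where position 1 is the first transcribed base and there is no position 0, and it lies outside the GENCODE gene. Vps26a has it once before each of 2 annotated starts, at -184 to -175 outside the GENCODE gene and at -153 to -144 inside an exon. The palindrome reads the same on both strands, and 0.370% of the 27025 genes with a promoter hold it. Its 8-base core TCACGTGA, which the longer form contains, was in 4 members (14.3% of 28), Pdcd6ip being the fourth, and in 1.12% of all genes. The 6-base E-box CACGTG, contained in both, was in 6 members (21.4%), with Snx5 and Sorl1 added, and in 8.09% of all genes. Of the 84 tested genes with the 10-base form, Vac14 rose and Kat5 fell (log2 fold change -0.13) at an unadjusted p under 0.01. That is 2.38% of the 84, beside 1.56% of all genes tested, and Vac14 is itself the member whose windows are shown. The median log2 fold change of the 84 was 0.0062.

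Retromer's core is a trimer of VPS35, VPS29 and a VPS26 subunit, which selects cargo on the endosome. Vps29, whose product caps the VPS35 solenoid and binds regulators, had values in ki/ki of 657, 606, 620, 663, 608, 645, 640 and 630, and in wt/wt of 714, 662, 666, 676, 667, 677, 648 and 663. All 8 ki/ki mice lay below the wt/wt median of 666.5 and 6 of them below every wt/wt mouse, so the groups overlapped between 648 and 663. The mean was 633.6 ± 21.4 (SD, n = 8) against 671.6 ± 19.4 (SD, n = 8). The log2 fold change was -0.084 (SE 0.033, 95% interval -0.15 to -0.018) with an unadjusted limma p of 0.013 and an adjusted p of 0.67, while the exact two-sided permutation p was 0.0014. The wt/wt mouse with 714 stood apart from its group, and without it the log2 fold change was -0.071 with an unadjusted limma p of 0.040. Leaving out ki/ki mouse 1, ki/ki mouse 4 or wt/wt mouse 7 brought that p under 0.01, to 0.0092, 0.0081 and 0.0096.

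None of the retromer genes, Vps29 included, passed the test. Vps35, the backbone, had a lowest, median and highest value of 1391, 1439 and 1513 in ki/ki and 1410, 1437 and 1621 in wt/wt, with a log2 fold change of -0.022 (95% interval -0.076 to 0.031). Vps26a had 501, 527.5 and 571 against 468, 518.5 and 572, with a log2 fold change of 0.035 (95% interval -0.042 to 0.11). Vps26b, the form enriched in brain, ranged from 940 to 1011 and from 957 to 1033, with a log2 fold change of -0.021. In each of these 3 genes the ranges of the genotypes overlapped.

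**Figure D3:**
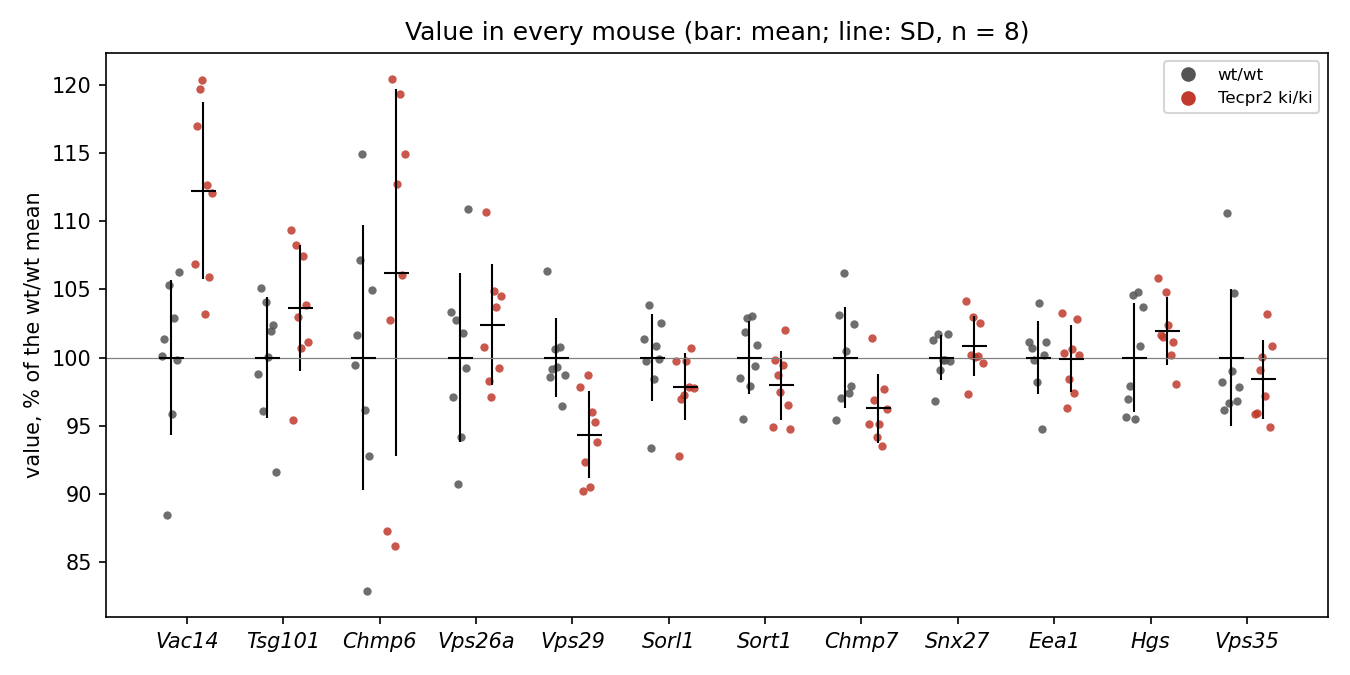
Value in every mouse as a percentage of the wt/wt mean of that gene (y axis) for 12 genes, with the mean (bar) and SD (line) of 8 wt/wt (grey) and 8 Tecpr2 ki/ki mice (red). Vac14 sits higher in ki/ki and Vps29 lower, both with some overlap, and the other 10 genes overlap more.

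Sorting nexins bind endosomal phosphoinositides and shape the tubules in which cargo leaves. Snx27 joins retromer to receptors that carry a PDZ-binding tail, among them glutamate receptors, and had 1791, 1842.5 and 1916 as lowest, median and highest value in ki/ki and 1781, 1836 and 1872 in wt/wt. Its log2 fold change was 0.012 (95% interval -0.033 to 0.057), and 3 ki/ki mice exceeded the highest wt/wt mouse. The membrane-bending nexins Snx1, Snx2, Snx5 and Snx6 had log2 fold changes of 0.011, -0.059, 0.0033 and -0.0038. None of the 5 had an unadjusted p under 0.05, and Snx2 came closest (limma p = 0.14, exact permutation p = 0.15). The sign for Snx6 turned when libraries were scaled to equal totals (0.00017).

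The sorting receptors carry cargo between the Golgi, endosomes and the surface. Sorl1, which steers the amyloid precursor protein away from late endosomes, had 6095, 6427 and 6618 as lowest, median and highest value in ki/ki and 6135, 6593.5 and 6825 in wt/wt. Its log2 fold change was -0.031 (SE 0.017, 95% interval -0.066 to 0.0037, unadjusted limma p = 0.079, adjusted p = 0.88), 7 of 8 ki/ki mice lay below the wt/wt median, and the exact permutation p was 0.17. Leaving out wt/wt mouse 4 gave -0.045 with an unadjusted limma p of 0.0087. Sort1, the receptor sortilin, had 4848, 5020 and 5220 against 4886, 5126 and 5272, with a log2 fold change of -0.030 (SE 0.018, 95% interval -0.065 to 0.0058, unadjusted limma p = 0.099, exact permutation p = 0.14). These genes had the 2 smallest standard errors of the list, and for both the ranges of the genotypes overlapped.

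M6pr and Igf2r, the receptors that deliver mannose 6-phosphate-tagged lysosomal enzymes, had log2 fold changes of -0.025 (95% interval -0.091 to 0.041) and 0.011 (95% interval -0.048 to 0.070). M6pr ranged from 746 to 870 in ki/ki and from 766 to 890 in wt/wt. Igf2r ranged from 887 to 1004 and from 875 to 951.

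ESCRT-0 is a dimer of HRS, encoded by Hgs, and a STAM protein. Hgs had 712, 737.5 and 768 as lowest, median and highest value in ki/ki and 693, 721.5 and 761 in wt/wt, with a log2 fold change of 0.028 (95% interval -0.035 to 0.092, unadjusted limma p = 0.38, exact permutation p = 0.25). Stam and Stam2 had log2 fold changes of -0.013 and -0.0075. None of the 3 genes passed the test.

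ESCRT-I joins TSG101, VPS28, a VPS37 form and a further subunit. Tsg101, which binds ubiquitin and the tails of HRS and ALIX, had 453, 491 and 519 in ki/ki and 435, 479.5 and 499 in wt/wt as lowest, median and highest value. The log2 fold change was 0.051 (95% interval -0.026 to 0.13, unadjusted limma p = 0.19, exact permutation p = 0.14), and 3 ki/ki mice exceeded the highest wt/wt mouse. Vps28 had a log2 fold change of 0.012, and the alternative VPS37 subunits Vps37a, Vps37b and Vps37c had -0.033, -0.0031 and -0.060. Vps37b shares 42.5% of its exonic bases with other genes, its largest overlap being with Hip1r on the opposite strand. The sign for Vps37b turned under both rescalings (0.00076 and 0.00012).

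The 3 genes of ESCRT-II, Snf8, Vps25 and Vps36, all had lower means in ki/ki and none passed the test. Their log2 fold changes were -0.045 for Snf8 (95% interval -0.15 to 0.059), -0.17 for Vps25 (95% interval -0.49 to 0.16) and -0.060 for Vps36 (95% interval -0.18 to 0.060). Vps25 ranged from 15 to 27 in ki/ki and from 17 to 26 in wt/wt, the lowest values of the list. By GENCODE M21 it shares 67.2% of its exonic bases with other genes, and its largest overlap is with Ramp2 on the same strand. The counting mode assigns a read only where 1 gene can be told from the other. The part of this overlap in the low value was not tested.

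ESCRT-III genes encode the filament-forming CHMP proteins, and none of the 8 passed the test. Chmp6, which links ESCRT-II to the filament, had 78, 99 and 109 as lowest, median and highest value in ki/ki and 75, 91 and 104 in wt/wt, with a log2 fold change of 0.082 (95% interval -0.090 to 0.25, unadjusted limma p = 0.34, exact permutation p = 0.34). Chmp7, which also acts in resealing of the nuclear envelope, had 575, 588.5 and 624 against 587, 610 and 653. Its log2 fold change was -0.054 (95% interval -0.12 to 0.014, unadjusted limma p = 0.12, exact permutation p = 0.031), and 4 ki/ki mice were under the lowest wt/wt mouse. The filament builder Chmp4b had a log2 fold change of -0.024, and the other 5 genes lay between 0.0027 (Chmp3) and 0.038 (Chmp5). Among them Chmp2b, a gene of frontotemporal dementia, ranged from 334 to 393 in ki/ki and from 340 to 396 in wt/wt, with a log2 fold change of 0.015 (95% interval -0.071 to 0.10).

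The VPS4 ATPases, which recycle the filaments, had lower means in ki/ki. Vps4a ranged from 612 to 693 in ki/ki and from 631 to 735 in wt/wt, with a log2 fold change of -0.054 (95% interval -0.12 to 0.016, unadjusted limma p = 0.13, exact permutation p = 0.15). Vps4b ranged from 523 to 558 and from 524 to 578, with a log2 fold change of -0.036 (95% interval -0.11 to 0.034). Pdcd6ip, which encodes ALIX and feeds cargo to ESCRT-III without ubiquitin, had 0.012 (95% interval -0.045 to 0.070). None of the 3 passed the test.

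Levels of different genes were compared per kilobase of the principal transcript, as means over all 16 mice. On this scale Sort1 was highest at 745 per kb, followed by Chmp4b at 631, Sorl1 at 607, Snx27 at 523 and Vps28 at 519. At the low end were Vps25 at 18.7, Vps36 at 59.5, Chmp6 at 59.9 and Vps37b at 61.8 per kb, and the last 3 did not differ beyond their spread between mice. Vps25 and Vps37b share 67.2% and 42.5% of their exonic bases with other genes. The effect of this overlap on their low levels, or on the Vps37a ratio below, was not tested. Vac14, at 113 per kb, lay beside Pikfyve at 120 and Fig4 at 104, all 3 on the per-kilobase scale. Dividing by all annotated exons, a choice added after the data were seen, kept Sort1 first and Vps25 last and placed Vac14 at 49.8, Pikfyve at 70.5 and Fig4 at 104 per kb.

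**Figure D4:**
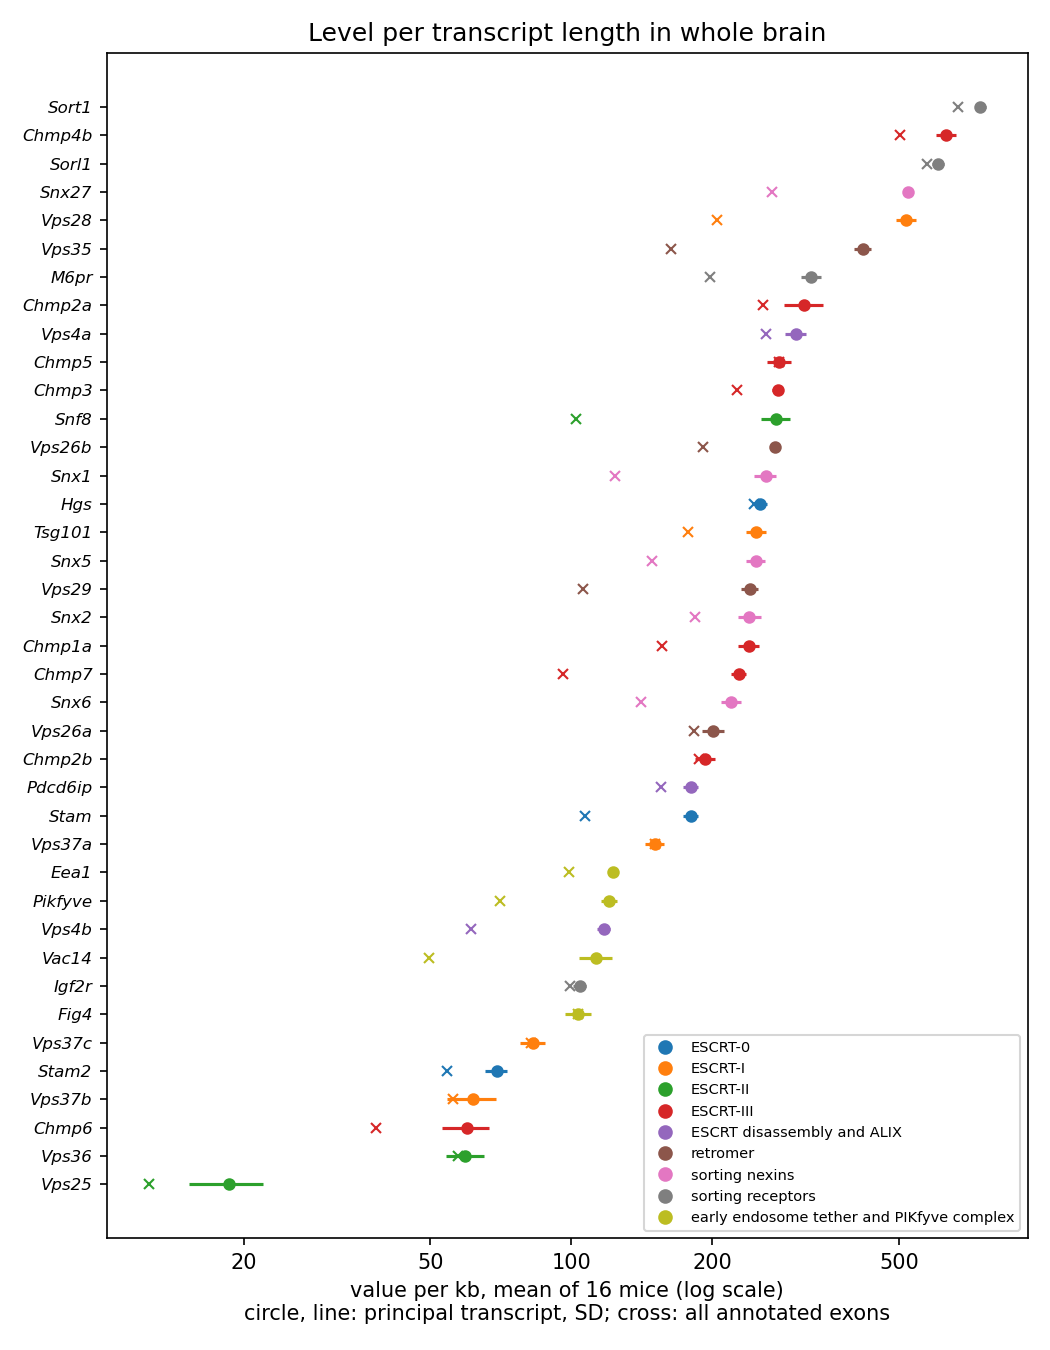
Mean value per kilobase over 16 mice (x axis, log scale) for each gene, by the principal transcript (circle, line showing the SD over mice) and by all annotated exons (cross), coloured by role. Sort1 is highest and Vps25 lowest by both lengths, while genes with long alternative exons, such as Vps35 and Vac14, move far between them.

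Several members are paralogs or alternative subunits, and their ratio within a mouse does not depend on how a library was scaled. None of the 8 pairs passed an adjusted p under 0.05 between the genotypes. The smallest exact two-sided permutation p over all splits of the 16 mice was 0.13 for Snx1 over Snx2, with a mean log2 ratio of values of 0.15 ± 0.11 (SD, n = 8) for ki/ki and 0.084 ± 0.054 (SD, n = 8) for wt/wt, and 0.85 after Benjamini-Hochberg adjustment over 8 pairs. Vps26a over Vps26b followed, with a log2 ratio of -0.87 ± 0.048 (SD, n = 8) against -0.93 ± 0.11 (SD, n = 8), exact permutation p = 0.21. The other 6 pairs had exact permutation p-values of 0.44 to 0.99.

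Per kilobase of principal transcript, the most unequal pair was M6pr over Igf2r, at 3.12-fold (2.72 to 3.43 over the 16 mice). Stam exceeded Stam2 by 2.60-fold, Vps4a exceeded Vps4b by 2.58-fold and Vps37a exceeded Vps37b by 2.47-fold, each in 16 of 16 mice. Chmp2a exceeded Chmp2b by 1.63-fold in 16 of 16 mice, and Vps26a was at 0.740 of Vps26b and below it in all of them. Snx1 over Snx2 was 1.09 by the principal transcript but 0.678 by all annotated exons, so the order of these paralogs depends on the length used. With all annotated exons the M6pr ratio was 1.99, the Vps4a ratio 4.28, the Stam ratio 1.98 and the Vps26a ratio 0.958, while Snx5 over Snx6 was 1.13 or 1.06.

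**Figure D5:**
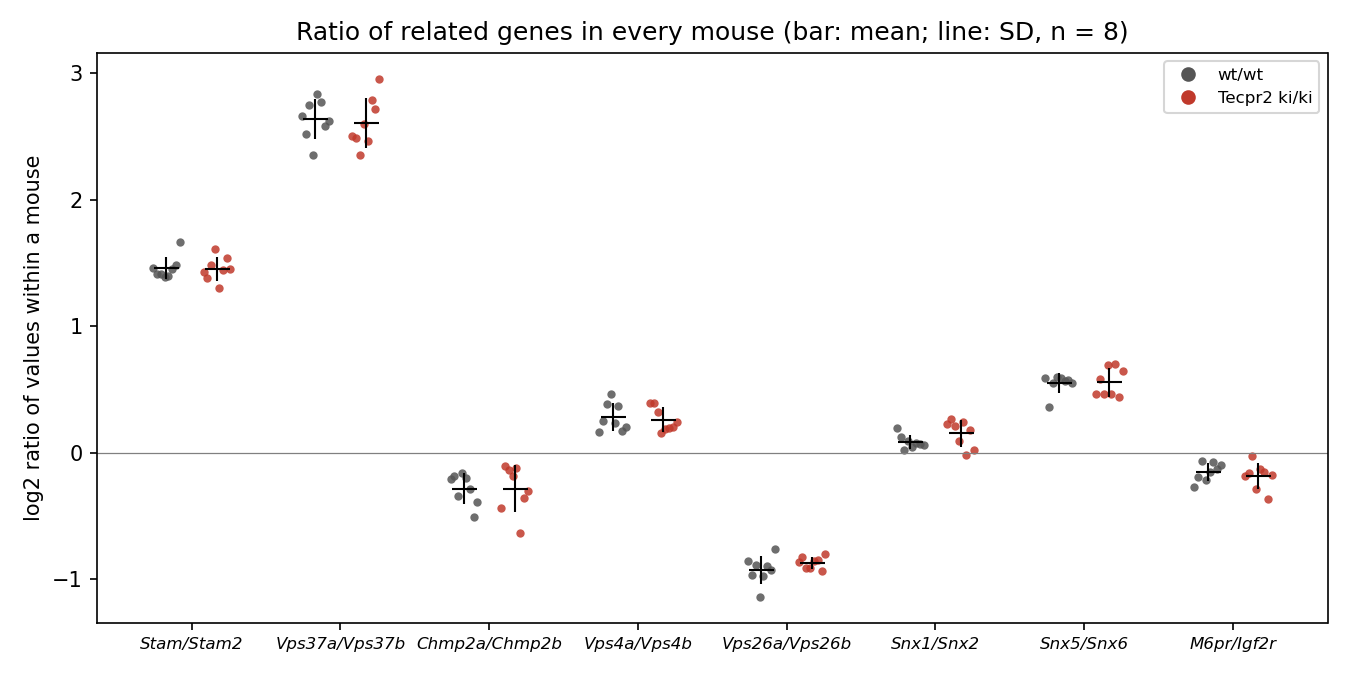
Log2 ratio of the values of 2 related genes within each mouse (y axis, not divided by length) for 8 pairs, with mean (bar) and SD (line) of 8 wt/wt (grey) and 8 Tecpr2 ki/ki mice (red). The genotypes overlap in every pair, and Snx1/Snx2 has the smallest exact permutation p, 0.13.

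The rest of the pathway was followed in 6 lists with 79 genes, all of which passed the filter. At an unadjusted limma p under 0.01 there was 1 higher gene, Spg20, and 1 lower gene, Sorcs3, which is 2.53% of the 79 beside 1.56% of all genes. None had an adjusted p under 0.1. The median log2 fold change over the 79 was 0.0057, with 43 genes higher and 36 lower. No gene of the 6 lists had an exact permutation p under 0.01.

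Spg20 encodes spartin, a partner of the ESCRT-III protein IST1, and belongs to the list of other ESCRT and associated genes, of which 10 of 14 were higher. It had 531, 560 and 611 as lowest, median and highest value in ki/ki and 486, 519.5 and 577 in wt/wt. The log2 fold change was 0.10 (SE 0.038, unadjusted limma p = 0.0089, adjusted p = 0.61, exact permutation p = 0.014), and 2 ki/ki mice exceeded the highest wt/wt mouse. Sorcs3, a neuronal receptor related to sortilin, had 532, 596.5 and 619 against 565, 627.5 and 673. The log2 fold change was -0.10 (SE 0.037, unadjusted limma p = 0.0080, adjusted p = 0.59, exact permutation p = 0.026), and 3 ki/ki mice were under the lowest wt/wt mouse. Among the 12 other sorting receptors and adaptors 8 were lower. Both calls were lost without a filter on low values, without the variance trend and when some single mice were left out, leaving between 0 and 2 genes called.

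In the Commander list, whose complex retrieves receptors alongside retromer, 11 of 15 genes were higher and none passed the test. The smallest p belonged to Commd3, which was lower, with 267 to 318 in ki/ki and 283 to 344 in wt/wt (log2 fold change -0.098, unadjusted limma p = 0.045, exact permutation p = 0.045). Ccdc22 and Commd5 had low mean values of 4.5 and 20.9, and share 92.6% and 66.8% of their exonic bases with other genes. In both the largest overlap is with a gene on the same strand. The part of this overlap in the low values was not tested. In the WASH complex, which builds actin on retromer tubules, 3 of 5 genes were higher, and Washc1 had the smallest p (log2 fold change 0.098, 196 to 238 against 186 to 217, unadjusted limma p = 0.082, exact permutation p = 0.036).

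Of the 22 other sorting nexins 13 were higher, and Snx33 had the smallest p (log2 fold change 0.11, 174 to 226 against 174 to 230, unadjusted limma p = 0.079, exact permutation p = 0.11). Among the 11 enzymes that make or remove endosomal phosphoinositides 9 were lower with a median log2 fold change of -0.034, and none passed the test. The smallest p there was that of Inpp5f, a phosphatase (log2 fold change -0.052, 1386 to 1525 against 1415 to 1609, unadjusted limma p = 0.059, exact permutation p = 0.10).

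Markers of brain cell types were measured in the same libraries. Of 9 microglial markers 8 were higher in ki/ki and 1 rose at an unadjusted p under 0.01, P2ry12, and their summed value was 2078 to 2271 in ki/ki and 1982 to 2184 in wt/wt. Of 10 astrocyte markers 8 were higher and 3 rose, Aqp4, Slc1a2 and Gfap. Their sums were 62698 to 65134 against 59186 to 62643, mostly from Slc1a2 (mean value 44629). Of 10 neuronal markers 9 were lower and 1 fell, Gad1, with sums of 56592 to 59468 against 56716 to 61605. Among all genes tested 49.5% were higher in ki/ki, and 0.856% rose and 0.701% fell at an unadjusted p under 0.01. In the oligodendrocyte, endothelial and mural, choroid plexus, red blood cell, pituitary and skeletal muscle lists no gene was called. Choroid plexus sums were 4524 to 5200 in ki/ki and 5040 to 5672 in wt/wt, mostly from Ttr (mean value 4225). Of the 7 pituitary markers 3 were at 0 in all mice and 2 reached the test. The part of these marker differences in the values of Vac14, Vps29 or any other member was not tested.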

How the data were processed

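Total RNA from whole brain was sequenced with a stranded, ribosomal RNA-depleted, paired-end protocol. Per the study's methods, the authors trimmed reads (Trim Galore 0.6.10, cutadapt 3.4), aligned them with STAR 2.7.10b to GRCm39, made gene counts (summarizeOverlaps, mode IntersectionNotEmpty) and tested with DESeq2 1.40.2. Whether counting used strand is not given in the sources used here. The deposited values are treated as a score, because they are normalised counts that the authors rounded to whole numbers by a method not named. Raw counts were not used here, so the depth of each library is unknown and no counting interval is given.

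Values were analysed as log2(value + 1) in limma 3.58.1 (R 4.3.3; trend and robust variance) for genes with a summed value over 16 and, in 1 genotype or both, 4 or more mice over 5. Exact permutation tests (Python 3.11.15, scipy 1.17.1) used all splits of 16 mice into 8 and 8, and 0.000155 is the smallest p they can give. The limma step was also run on simulated data, as a check of the code alone. The planted differences were larger than that of any member, so power at the sizes reported here was not tested. Symbols, exon lengths and GRCm38 coordinates came from GENCODE M21 (52017 of 55404 genes matched), and Dennd10 is listed there as Fam45a. The 16 single-mouse tables were identical to the series table, and no pair of libraries agreed within the noise that counts of this size would have, were the rounded values read as counts. Members, lists and named genes were chosen with earlier results of these data known. Named genes were those past an unadjusted p of 0.01, the 4 smallest p in each direction, 5 genes of known role, and the smallest p of each pathway list. A microglial marker of the original list is not reported here.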

Additional observations from a re-analysis of the deposited data

Results flagged for a closer look

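In 8 of 78 groups of 8 mice, 1 mouse lay further from the other 7 than Dixon's 95% limit allows, where chance flags about 1 in 20 groups. The high values were Vps37b at 198 in wt/wt mouse 4, Vps26b at 1033 in wt/wt mouse 4, Vps29 at 714 in wt/wt mouse 1 and Igf2r at 1004 in ki/ki mouse 7. The low values were Chmp2a at 247 in wt/wt mouse 7, Pdcd6ip at 985 in ki/ki mouse 2, Sorl1 at 6095 in ki/ki mouse 2 and Igf2r at 875 in wt/wt mouse 6. Without ki/ki mouse 2 the log2 fold change of Sorl1 was -0.020.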

How the results depend on the processing

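The count of members with an unadjusted limma p under 0.01 was 1 with other pseudocounts, without a filter on low values, under both rescalings and without the robust estimate, and 2 without the variance trend (Vps29 added). It was 1 to 2 over leaving out each of the 16 mice. No member reached an adjusted p under 0.1 under any of these alternatives, and the adjusted p of Vac14 ran from 0.16 to 0.54. The pathway count was 0 without a filter on low values, 1 without the robust estimate, 0 without the variance trend, and 0 to 2 over leaving out each mouse. The causes of these changes were not tested.

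The labels do not say whether replicate numbers pair the mice. In deviations from the group means, 1 of 8 same-numbered pairs correlated above 0.1 (range -0.040 to 0.15). Of the 16 mice, 5 correlated best with their own number, so a pairing was neither shown nor excluded. With the replicate number as a block, 1 member, 2 pathway genes and 419 of all genes had an unadjusted p under 0.01, against 362 without the block, 46 genes against 31 had an adjusted p under 0.1, and 0 of 8 pair ratios differed.

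Small differences changed sign with the setting, and none of these passed the test under any setting. Scaling to equal totals gave 0.00076 for Vps37b, 0.00017 for Snx6 and 0.0029 for Eea1, and scaling by the median ratio gave 0.00012 for Vps37b and 0.0022 for Eea1. Differences of medians gave 0.013 for Stam/Stam2, 0.00087 for Chmp2a/Chmp2b and -0.045 for Snx5/Snx6. Leaving out each mouse gave log2 fold changes of -0.024 to 0.0039 for Stam, -0.030 to 0.0093 for Stam2, -0.0056 to 0.032 for Vps28, -0.034 to 0.047 for Vps37b, -0.0096 to 0.025 for Chmp1a, -0.022 to 0.048 for Chmp2a, -0.00062 to 0.035 for Chmp2b and -0.0060 to 0.012 for Chmp3. It gave -0.0079 to 0.029 for Snx1, -0.017 to 0.018 for Snx5, -0.019 to 0.016 for Snx6, -0.0049 to 0.021 for Igf2r, -0.012 to 0.0071 for Eea1, -0.017 to 0.0059 for Pikfyve and -0.025 to 0.019 for Fig4. For the pair ratios it gave -0.028 to 0.024 for Stam/Stam2, -0.079 to 0.0072 for Vps37a/Vps37b, -0.033 to 0.049 for Chmp2a/Chmp2b, -0.038 to 0.0079 for Vps4a/Vps4b and -0.020 to 0.024 for Snx5/Snx6. Depth could not be read from rounded normalised values.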
